A study of Mus musculus with 9 samples.

Results

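Of the 24346 genes in the deposited FPKM values, 9 genes of the complement system were taken by their gene symbol, and all 9 were found in each of the 9 libraries. They are the complement receptors Cr2, C3ar1 and C5ar1, the membrane-bound regulators Cr1l, Cd55 and Cd59a, and the components C3, Cfp and C1qa. The libraries came from splenic B cells of C57BL6 wild-type mice, sorted as follicular (FO) B cells from young mice (8-wk-old), FO B cells from aged mice (50-wk-old) and age-associated B cells (ABCs) from aged mice (50-wk-old), with 3 libraries from 3 mice in each group. Among B cells, FO B cells were gated as B220hiCD43-CD23+CD21lo and ABCs as B220hiCD43-CD23-CD21loCD11b+CD11c+. The groups were compared to ask how ABCs differ from FO B cells and how FO B cells differ with age. FPKM is the number of fragments of a gene scaled by transcript length and by library size, so that levels of different genes can be set side by side.

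Complement is a cascade of plasma proteins in which a convertase cleaves C3 and its fragments become attached to antigens, immune complexes and cells. B cells read these fragments through Cr2, which encodes both CD21 and CD35 in the mouse by alternative splicing, and CD21 joins CD81 in a co-receptor that lowers the threshold for B cell receptor signaling. Membrane regulators such as CD55 and the product of Cr1l, known as Crry, keep convertases from forming on the cell's own surface, whereas properdin, the product of Cfp, stabilizes the convertase of the alternative pathway.

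The sort matters for these genes, because CD21/35 is the product of Cr2 and CD11b and CD11c are the products of Itgam and Itgax. Levels of these 3 genes in ABCs are thus partly set by the gate, although both gates took CD21lo cells. All 8 B lineage markers, among them Cd79a and Ms4a1, were above 10 FPKM in each group. Approximately 7250000 to 8810000 mapped reads per library were inferred from the step that 1 read makes in low FPKM values. ABC replicate 3 stood apart, with a mean correlation of 0.961 with the other ABC libraries (Pearson's r of log2(FPKM + 1) across genes) against 0.969 to 0.976 for the other 8 libraries within their groups. For Cr2, Cd55, Cd81 and Cfb, the comparison with FO B cells from aged mice is given with and without it. Marker levels and the comparison with FO B cells from young mice include it unless stated.

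By the GENCODE M21 annotation (assembly GRCm38, which is mm10), Cr2 lies at chr1:195136811-195176716 on the minus strand with 12 annotated transcripts, and Cr1l lies 5224 bases away at chr1:195097382-195131586 on the same strand. Cd55 lies at chr1:130439027-130462744 on the minus strand, 16017 bases from its copy Cd55b, and Cfp at chrX:20925454-20931555 on the minus strand. All 9 genes are annotated as protein-coding. The FPKM value covers all transcripts of a gene, so that CD21 and CD35 cannot be told apart. Cr2 and Cr1l share no stretch of annotated transcript as long as a read, whereas 4.15% of the stretches of Cd55 also occur in Cd55b. Cd55 also overlaps the antisense gene Gm16083, whose reads cannot be separated from those of Cd55 without strand.

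The promoters of the 3 members with the largest differences between ABCs and FO B cells are shown, from 250 bases before to 50 bases after the start of the gene (RefSeq, GRCm38.p6). Capitals mark matches, on either strand, to TCACAC, the core letters bound by T-box factors, or TGGGAA, the core letters bound by RBPJ. The windows are chr1:195176670-195176969 for Cr2, chr1:130462695-130462994 for Cd55 and chrX:20931506-20931805 for Cfp, each printed on the minus strand.
Cr2: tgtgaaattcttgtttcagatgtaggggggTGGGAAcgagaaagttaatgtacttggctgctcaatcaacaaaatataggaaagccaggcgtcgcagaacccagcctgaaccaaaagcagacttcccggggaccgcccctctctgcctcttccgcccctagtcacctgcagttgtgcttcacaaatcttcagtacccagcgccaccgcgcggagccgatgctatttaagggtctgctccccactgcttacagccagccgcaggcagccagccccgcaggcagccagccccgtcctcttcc
Cd55: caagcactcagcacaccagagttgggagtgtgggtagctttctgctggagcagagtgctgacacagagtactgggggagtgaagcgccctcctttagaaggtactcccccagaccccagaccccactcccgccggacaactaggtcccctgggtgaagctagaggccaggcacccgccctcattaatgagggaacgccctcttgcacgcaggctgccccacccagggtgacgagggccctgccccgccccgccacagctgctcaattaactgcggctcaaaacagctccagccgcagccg
Cfp: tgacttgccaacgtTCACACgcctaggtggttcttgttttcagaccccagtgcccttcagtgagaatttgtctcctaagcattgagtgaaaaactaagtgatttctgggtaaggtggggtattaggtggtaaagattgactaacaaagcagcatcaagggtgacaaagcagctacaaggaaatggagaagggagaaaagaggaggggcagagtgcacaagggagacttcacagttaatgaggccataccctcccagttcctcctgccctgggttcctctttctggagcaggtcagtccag

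Of the 9 members, 8 had a promoter in the RefSeq table. TGGGAA was found in the Cr2 window, starting at position -220 from the gene start, and on the opposite strand in the Cr1l window at position -5. TCACAC was found in the Cfp window at position -236. The Cd55 window held neither, as did the windows of C3ar1, C5ar1, Cd59a and C3. Of 32851 promoters of this length, 25.6% held TGGGAA and 14.5% held TCACAC. These are matches of letters and not sites of binding.

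In FO B cells, the members fell into a set of 4 genes with means of at least 28.1 FPKM and a set of 5 genes with means under 1 FPKM. In FO B cells from aged mice, Cd55 was at 410.3 ± 43.1 FPKM (SD, n = 3), Cr2 at 151 ± 20.7, Cr1l at 95.1 ± 6.68 and Cfp at 28.1 ± 7.57, and no library of one gene overlapped those of the next. The order was the same in FO B cells from young mice, with Cd55 at 380.2 ± 20.7 FPKM (SD, n = 3), Cr2 at 149 ± 8.95, Cr1l at 87.5 ± 2.77 and Cfp at 30.0 ± 3.26. In ABCs the order of these 4 genes was different, although Cd55 stayed above Cr2, with Cfp at 147 ± 7.43 FPKM (SD, n = 3), Cr1l at 111 ± 4.74, Cd55 at 46.2 ± 28.2 and Cr2 at 4.69 ± 3.83, again without overlap between neighbors among them. Cr2 of ABC replicate 3 overlapped the low members in ABCs. The other 5 members had means of less than 1 FPKM in every group, and among these 5 the libraries of neighbors in the order of means overlapped.

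**Figure D1:**
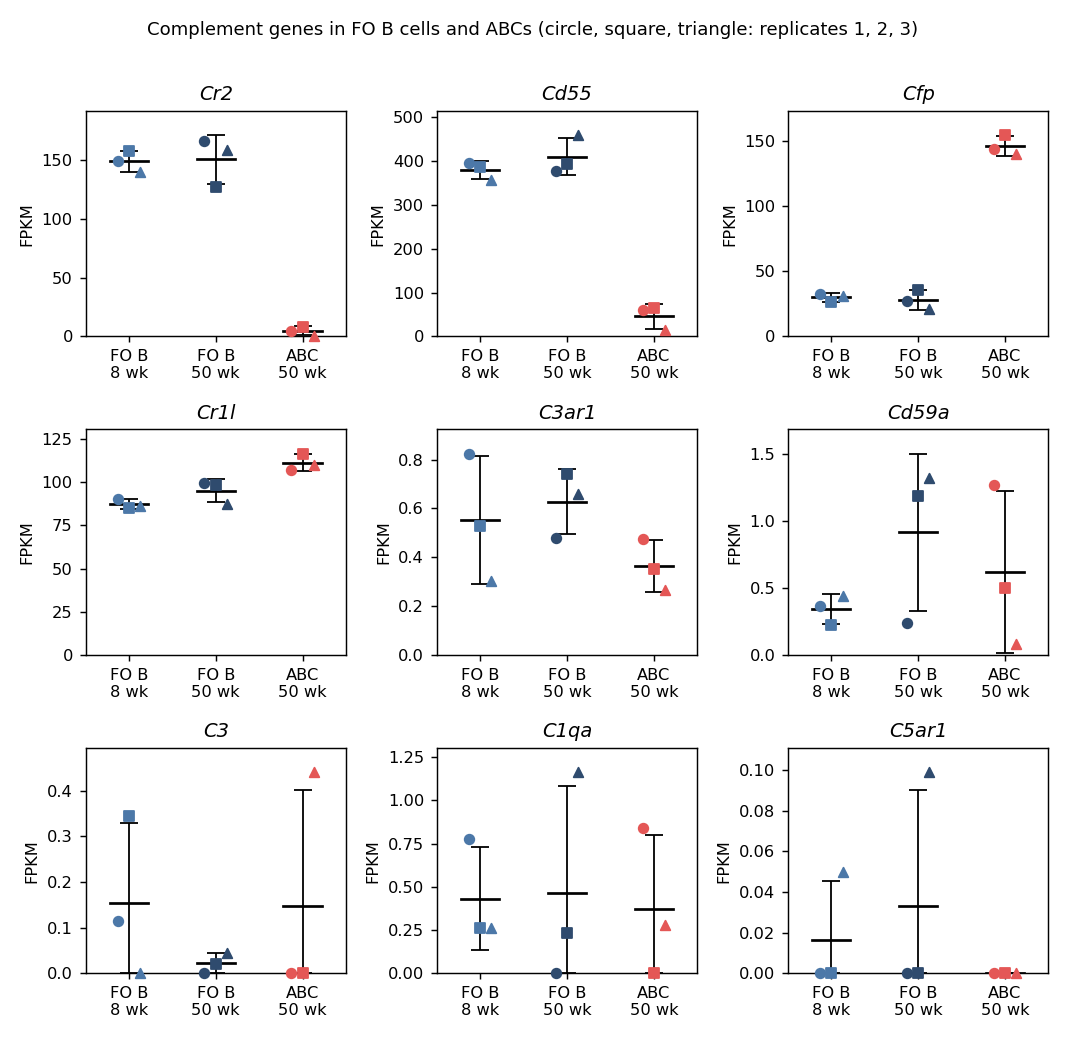
FPKM of the 9 members (vertical axis, linear and from 0, scaled per gene) in each library of FO B cells at 8 and 50 weeks of age and of ABCs at 50 weeks. Points are libraries, horizontal lines are means and error bars are the SD of 3 libraries, drawn down to 0 at the lowest. Cr2 and Cd55 are lower and Cfp is higher in all 3 ABC libraries than in all 6 FO B libraries, and the 5 low members are at no more than 1.32 FPKM.

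In ABCs, Cr2 and Cd55 were downregulated and Cfp was upregulated relative to FO B cells from aged mice, whereas Cr1l differed by 0.23 on the log2 scale. The 4 members that averaged 1 FPKM or more in the 6 libraries were tested among 10412 genes (limma on log2(FPKM + 1), Benjamini-Hochberg FDR), and each of the 4 also reached that mean in every group. All 4 had an FDR under 0.05, 2 higher and 2 lower in ABCs. Their median log2 fold change was -1.58, against -0.01 over all genes tested. This median lies between Cd55 (-3.39) and Cr1l (0.23), and no member was near it. Of all genes tested, 35.9% were called in this comparison, 19.4% as higher and 16.5% as lower in ABCs. That is 2020 higher and 1719 lower genes, and 2447 and 603 with upper quartile scaling, under which the directions of the 4 members were the same. With the stricter thresholds, a log2 fold change beyond 2.3 in size and FDR below 0.01, 3 of the 4 were called (Cr2, Cd55 and Cfp), against 1.92% of all genes tested. The groups did not overlap for 5 of the 9 members, Cr2, Cd55 and C3ar1 below and Cfp and Cr1l above, and for 52.6% of all genes tested. That share covers genes that averaged 1 FPKM or more, which C3ar1 did not.

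Cr2 was at 166, 127 and 159 FPKM in FO B cells from aged mice and at 4.93, 8.39 and 0.745 FPKM in ABCs. The highest ABC library was far below the lowest FO B library, and ABC replicate 3 held the least. Mean FPKM was 32.2-fold lower in ABCs, and Cr2 fell by 5.04 on the log2 scale (SE, the standard error, 0.55, FDR = 0.000636, limma; exact two-sided permutation p = 0.1, the smallest that 3 against 3 libraries allow). Without ABC replicate 3, mean FPKM was 22.6-fold lower and the log2 fold change was -4.34 (SE 0.20, FDR = 1.07e-05, limma). Among genes of at least 1 FPKM in a library, Cr2 lay between the 92.0 and 93.8 percentile in FO B cells from aged mice and at the 23.6 and 35.0 percentile in ABC replicates 1 and 2, and it was under 1 FPKM in replicate 3. In sorted populations, fewer cells that express a gene and less RNA of it per cell cannot be told apart.

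Cd55 encodes the decay-accelerating factor, a lipid-anchored protein that takes C3 convertases apart. It was at 378, 394 and 459 FPKM in FO B cells from aged mice, the highest level of any member, and at 59.3, 65.4 and 13.8 FPKM in ABCs. Every ABC library was below every FO B library, and ABC replicate 3 was again the lowest. Cd55 fell by 3.39 on the log2 scale (SE 0.53, FDR = 0.0028, limma), with an 8.89-fold lower mean FPKM and an exact two-sided permutation p of 0.1. Without ABC replicate 3 the mean was 6.58-fold lower, and the log2 fold change was -2.70 (SE 0.10, FDR = 4.63e-06, limma).

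Cd55 and Cr2 did not fall to the same extent. The ratio of Cd55 to Cr2 FPKM was 2.27, 3.09 and 2.89 in FO B cells from aged mice, 2.65, 2.45 and 2.55 in FO B cells from young mice, and 12.02, 7.79 and 18.5 in ABCs. All 3 ABC ratios were above all 6 FO B ratios (exact two-sided permutation p = 0.1 for ABCs against FO B cells from aged mice, the smallest possible).

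Cfp, which encodes properdin, was at 27.2, 36.1 and 21.0 FPKM in FO B cells from aged mice and at 144, 155 and 141 FPKM in ABCs. The 3 ABC libraries lay close together and all were above the FO B libraries. Cfp rose by 2.38 on the log2 scale (SE 0.17, FDR = 0.000132, limma), a 5.22-fold higher mean FPKM (exact two-sided permutation p = 0.1). Leaving out any of the 6 libraries gave log2 fold changes of 2.19 to 2.57. Cfp moved from between the 58.3 and 72.4 percentile of expressed genes in FO B cells from aged mice to between the 92.1 and 93.4 percentile in ABCs.

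Properdin is made mainly by myeloid cells, so that markers of such cells were read in the same libraries. The summed level of 12 macrophage and monocyte markers was 23.99 to 29.4 FPKM in FO B cells from aged mice, 37.3 to 55.9 FPKM in FO B cells from young mice and 86.8 to 112 FPKM in ABCs. In ABCs, Ly6c2 (74.2 FPKM on average) and Cd68 (10.7 FPKM) were above 10 FPKM, against 11.5 and 4.17 FPKM in FO B cells from aged mice. Ccr2 averaged 0.775 FPKM in ABCs, with 1.93 FPKM in ABC replicate 3, against 0.0364 FPKM. Spic averaged 9.14 FPKM in ABCs against 6.24 FPKM in FO B cells from aged mice. Lyz2 averaged 5.10 against 3.99 FPKM, and both genes overlapped between these groups. Of the list, 8 had means under 1 FPKM in every group. Of these 8, Csf1r was at 0.301 to 0.831 FPKM in ABCs and 0.245 to 0.603 FPKM in FO B cells from aged mice. Cd14 was at 0.152 to 0.252 and 0 to 0.310 FPKM, and Siglec1 was listed at 0 in all 9 libraries. Marco (0.0436 against 0.236 FPKM) and Fcgr1 (0.0155 against 0.0473 FPKM) were lower on average in ABCs. Of 9 neutrophil markers, none had a mean of 1 FPKM or more in ABCs, and their sum was 0.450 to 1.60 FPKM there against 1.18 to 24.5 FPKM in FO B cells from aged mice. Of 6 dendritic cell markers, Zbtb46 and Siglech averaged 3.17 and 1.13 FPKM in ABCs and 0.853 and 0.120 FPKM in FO B cells from aged mice. Flt3 was lower on average in ABCs, at 0.765 against 2.18 FPKM. The other 3 were under 1 FPKM in ABCs, and the sum of the 6 was 4.04 to 7.12 against 2.46 to 5.08 FPKM. The part of such cells in the level of Cfp was not tested.

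Marginal zone B cells are known for high CD21. The summed level of 6 marginal zone B cell markers was 188 to 245 FPKM in ABCs and 87.8 to 97.3 FPKM in FO B cells from aged mice, beside the low Cr2 of ABCs. Cd9 (78.3 against 9.01 FPKM) and S1pr3 (73.4 against 3.98 FPKM) made up most of this difference, whereas Cd1d1 was at 25.8 and 43.7 FPKM and Dtx1 at 33.1 and 32.7 FPKM in the respective groups. Myof was also lower in ABCs, at 0.269 against 2.03 FPKM, and Plxnd1 was at 0.441 against 0.129 FPKM. The other marker lists were low. Of 5 follicular dendritic cell markers, which were read because such cells carry complement receptors, only Mfge8 exceeded 10 FPKM (10.6 in ABCs and 5.33 in FO B cells from aged mice), their sum was 8.22 to 14.4 FPKM in ABCs and 3.96 to 6.91 FPKM in FO B cells from aged mice, and Cxcl13 was listed at 0 in all libraries. T cell markers summed to at most 1.002 FPKM and erythroid markers to at most 3.53 FPKM in any library.

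Cr1l encodes Crry, a regulator that acts both as a decay accelerator and as a cofactor for C3b cleavage in rodents. It was at 99.7, 98.2 and 87.4 FPKM in FO B cells from aged mice and at 107, 117 and 110 FPKM in ABCs, which did not overlap. The difference was 0.23 on the log2 scale (SE 0.07, FDR = 0.0488, limma; exact two-sided permutation p = 0.1) and lay at the edge of the threshold. The FDR was under 0.05 in 3 of 16 alternatives, ranged from 0.0206 to 0.181 over them, and was 0.061 to 0.146 when any 1 of the 6 libraries was left out. The direction was the same in all 16. Thus, the 2 neighboring genes Cr2 and Cr1l differed in ABCs by a 32.2-fold lower mean for one and a 1.17-fold higher mean for the other.

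**Figure D2:**
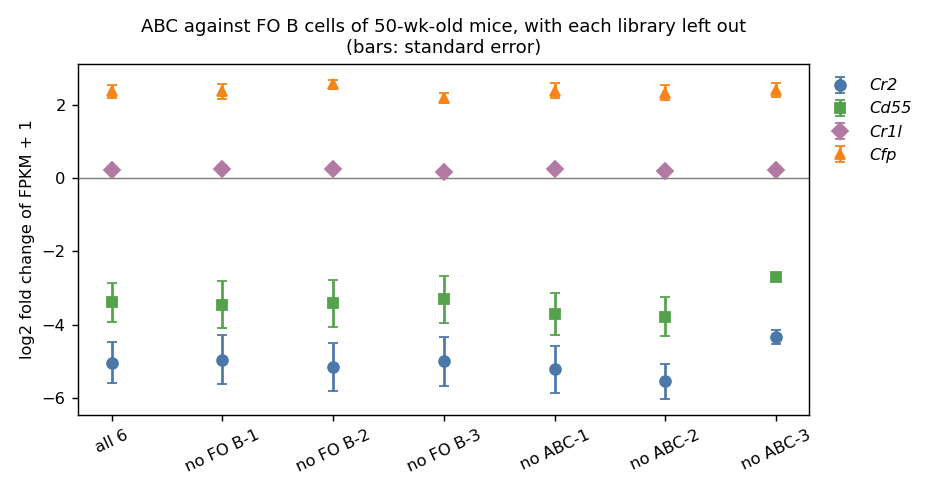
log2 fold change of FPKM + 1 (vertical axis) between ABCs and FO B cells from 50-wk-old mice for the 4 members tested, with all 6 libraries and with each library left out (horizontal axis). Points are limma estimates and bars are standard errors. Leaving out ABC replicate 3 brings Cr2 to -4.34 and Cd55 to -2.70 with smaller errors, and no omission changes a direction.

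The anaphylatoxin receptors were low. C3ar1, which binds C3a, was at 0.481, 0.741 and 0.659 FPKM in FO B cells from aged mice (70 reads in all) and at 0.476, 0.350 and 0.266 FPKM in ABCs (38 reads). The groups did not overlap by a margin of 0.481 against 0.476 FPKM, and in a fit with no filter on low values the log2 fold change was -0.25 (SE 0.10, FDR = 0.153, limma). In FO B cells from young mice C3ar1 was at 0.825, 0.528 and 0.304 FPKM, which spanned the values of both other groups. C5ar1, which binds C5a, had 1 read in FO B cells from young mice, 2 in FO B cells from aged mice and 0 in ABCs, where 3 reads over the group, the limit that a count of 0 allows, correspond to 0.0517 FPKM. These limits cover counting error only.

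Cd59a, which encodes an inhibitor of the membrane attack complex, was at 0.240, 1.18 and 1.32 FPKM in FO B cells from aged mice, 0.366, 0.222 and 0.442 FPKM in FO B cells from young mice and 1.27, 0.503 and 0.0787 FPKM in ABCs. The spread within the 50-wk-old groups was larger than any difference between groups, and the neighboring copy Cd59b was at no more than 0.521 FPKM in any library. C3, the central component, had 18 reads in ABCs, all in replicate 3 (0.441 FPKM), against 3 reads in FO B cells from aged mice and 20 in FO B cells from young mice. C1qa, a chain of C1q that starts the classical pathway, had 8 reads in ABCs, 11 in FO B cells from aged mice and 10 in FO B cells from young mice. With no filter, the FDRs of these 3 genes and the 2 anaphylatoxin receptors were 0.153 to 0.917 for ABCs against FO B cells from aged mice (limma), and a difference was not detectable at this depth.

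Between FO B cells from aged and young mice, no member was called. The 4 members tested among 10122 genes had limma FDRs of 0.502 to 0.985, none was under an unadjusted p of 0.05, and 0.464% of all genes tested were called. Cr2 was at 150, 158 and 140 FPKM in FO B cells from young mice and differed by 0.01 on the log2 scale (SE 0.10, limma). Cd55 was at 397, 387 and 357 FPKM in young mice and differed by 0.11 (SE 0.08), Cr1l at 90.6, 85.4 and 86.4 FPKM differed by 0.12 (SE 0.07), and Cfp at 32.6, 26.4 and 31.1 FPKM differed by -0.12 (SE 0.17). With upper quartile scaling, the differences of Cr2, Cd55 and Cr1l changed sign to -0.12, -0.02 and -0.01, and that scaling moved the median of all genes by -0.12. All 9 members overlapped between both ages, and 18.6% of all genes tested did not overlap. That share covers genes that averaged 1 FPKM or more, which leaves out the 5 low members. With no filter, the 5 low members had FDRs of 0.61 to 0.991 (limma). Cd59a had 39 reads in FO B cells from aged mice and 14 in those from young mice, a log2 fold change of 0.46 with an SE of 0.24, and 18 of the 39 reads came from each of replicates 2 and 3.

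ABCs were also set beside FO B cells from young mice, a comparison that shares the ABC libraries with the first. All 4 members tested among 10438 genes were called, 2 higher and 2 lower (limma), where 40.7% of all genes tested were called, 21.6% as higher and 19.1% as lower. Cr2 fell by 5.03 on the log2 scale (SE 0.54, FDR = 0.000484), Cd55 fell by 3.29 (SE 0.52, FDR = 0.00263), Cfp rose by 2.25 (SE 0.09, FDR = 7.83e-06) and Cr1l by 0.35 (SE 0.06, FDR = 0.00403). For Cr1l the FDR was 0.0666 with upper quartile scaling and at most 0.0218 when a library was left out. At the stricter thresholds Cr2 and Cd55 were called, Cfp lay just under the limit of 2.3, and 2.2% of all genes tested passed. The same 4 members did not overlap between the groups, as for 55.3% of all genes tested.

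**Figure D3:**
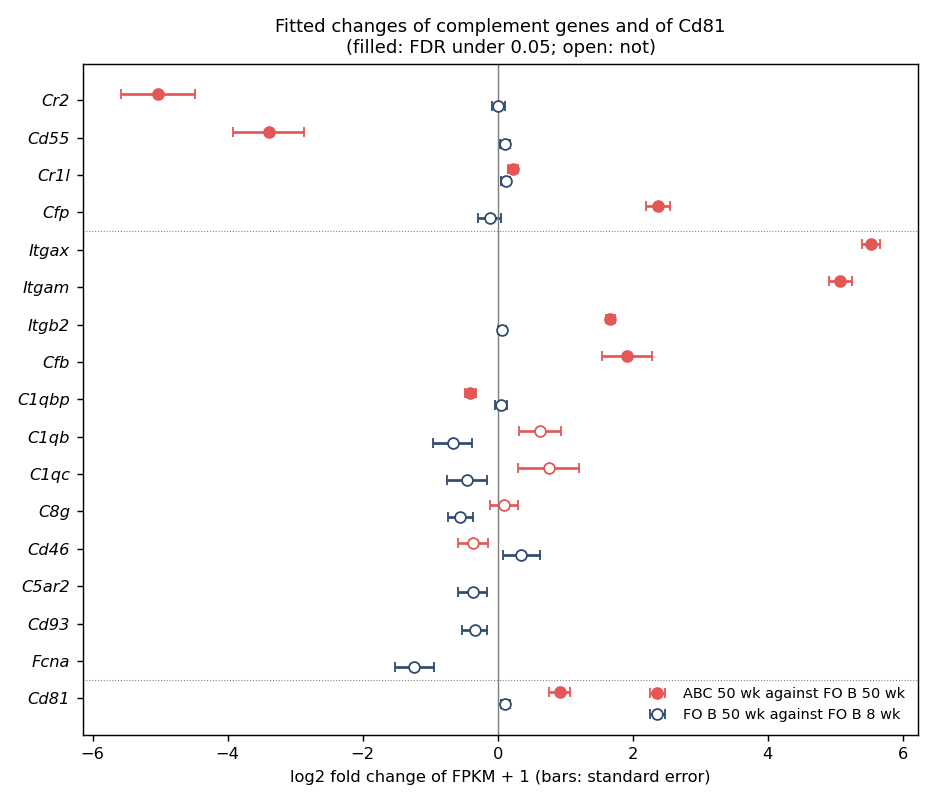
log2 fold change of FPKM + 1 (horizontal axis) for ABCs against FO B cells from 50-wk-old mice and for FO B cells from 50-wk-old against 8-wk-old mice. Points are limma estimates, bars are standard errors and filled points have an FDR under 0.05; the 4 members tested are at the top, other complement genes tested in either comparison in the middle, and Cd81 at the bottom. Filled points occur only between ABCs and FO B cells.

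CD21 signals in a complex with CD81, and Ifitm1, whose product is also known as Leu-13, is listed with the same co-receptor. Cd81 was at 279.3, 267 and 295 FPKM in FO B cells from aged mice and at 472, 459 and 683 FPKM in ABCs, without overlap. It rose by 0.92 on the log2 scale (SE 0.15, FDR = 0.00357, limma), and by 0.73 (SE 0.07, FDR = 0.000217, limma) without ABC replicate 3, the library with the highest Cd81 and the lowest Cr2. Ifitm1 was at no more than 1.25 FPKM in any library. The ratio of Cd81 to Cr2 FPKM was 1.68 to 2.09 in FO B cells from aged mice and 54.7 to 916 in ABCs.

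Of 43 other genes of the complement system, 30 had means of less than 1 FPKM in every group and 4 were at 0 in all 9 libraries. In the comparison of ABCs with FO B cells from aged mice 9 were tested, of which 4 rose and 1 fell, where 19.4% of all genes tested rose and 16.5% fell. Of these 9, Itgam, Itgax, Cfb and C1qc were under 1 FPKM on average in FO B cells from aged mice and passed the filter through ABCs, so that their difference was favored by the filter. The count of 4 includes Itgam and Itgax, whose products CD11b and CD11c the ABC gate selects, so that it is not independent of the sort. Between FO B cells from aged and young mice, 9 of the 43 were tested and none was called (limma). Of these 9, 3 were under an unadjusted p of 0.05 (limma), against 1298 of all 10122 genes tested. C1qc, C5ar2, Cd93 and Fcna passed the filter through FO B cells from young mice, being under 1 FPKM on average in aged mice. Cd46 passed it through FO B cells from aged mice.

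The receptors for iC3b that are built on the beta-2 integrin had the highest levels in ABCs among those of the 43 genes that rose. Itgb2, the shared beta chain of CR3 and CR4, was at 75.5, 76.1 and 83.3 FPKM in FO B cells from aged mice and at 245, 241 and 267 FPKM in ABCs. It is not a gate marker itself and rose by 1.67 on the log2 scale (SE 0.07, FDR = 1.45e-05, limma), while it pairs with the gated chains and with other integrin chains. Itgam, the CR3 alpha chain, was at 0.665 FPKM on average in FO B cells from aged mice and at 46.2, 53.6 and 65.7 FPKM in ABCs, and Itgax, the CR4 alpha chain, was at 0.115 FPKM and at 45.03, 59.7 and 47.3 FPKM, as the CD11b+CD11c+ gate selects. ABCs thus had transcripts of the CR3 and CR4 alpha chains at 55.1 and 50.7 FPKM on average beside 4.69 FPKM of Cr2, whereas FO B cells from aged mice had under 1 FPKM of either alpha chain beside 151 FPKM.

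Cfb encodes factor B, the protease of the alternative pathway convertase that properdin stabilizes. It was at 0.242, 0.120 and 0.222 FPKM in FO B cells from aged mice and at 2.07, 2.48 and 7.53 FPKM in ABCs, highest in replicate 3. It rose by 1.91 on the log2 scale (SE 0.38, FDR = 0.00729, limma), and by 1.45 (SE 0.18, FDR = 0.00098, limma) without ABC replicate 3. C1qbp, whose product binds the globular heads of C1q and resides largely in mitochondria, fell by 0.41 on the log2 scale from 114, 102 and 124 FPKM to 86.6, 82.4 and 85.6 FPKM (SE 0.08, FDR = 0.00858, limma), and its FDR was 0.21 with upper quartile scaling. Of the genes not called, C8g was at 4.17 ± 0.870 FPKM (SD, n = 3) in FO B cells from aged mice and 4.58 ± 1.22 in ABCs, C1qb at 1.01 ± 0.696 and 2.005 ± 0.615, and C1qc at 0.720 ± 0.355 and 2.25 ± 1.82 (FDR = 0.228, limma). The C1qc FDR was 0.0167 without ABC replicate 2 and 0.259 to 0.435 for the other omissions that were tested (limma). Of 47 C1qc reads in ABCs, 28 came from replicate 3, and without that library C1qc was under the filter and not tested.

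**Figure D4:**
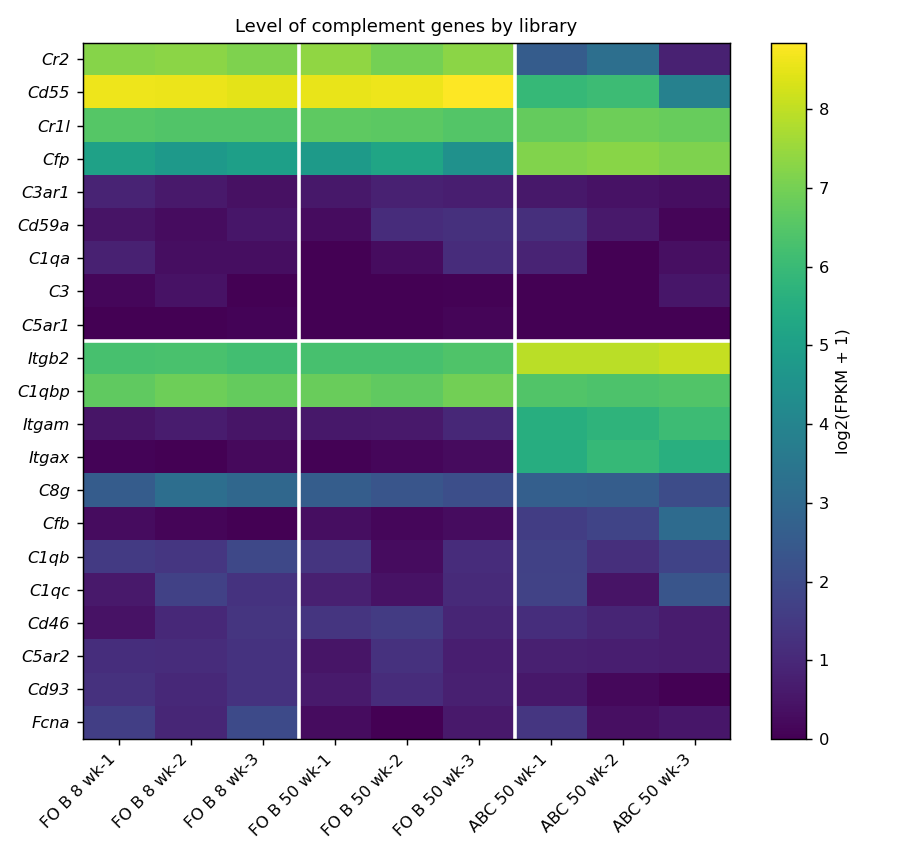
Level of the 9 members (above the horizontal line) and of 12 of the other complement genes that averaged 1 FPKM or more in some group (below it), as log2(FPKM + 1) by color, in each of the 9 libraries (columns, grouped by vertical lines). Cr2 and Cd55 are darker and Cfp, Itgb2, Itgam, Itgax and Cfb brighter in the 3 ABC columns, and the FO B columns of both ages look alike.

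The genes most like each expressed member were taken by Pearson's r of log2(FPKM + 1) over the 9 libraries among 10375 genes. They were Eid1, Brwd1 and Treml2 for Cr2 (0.997 each), Parp8, Pkib and B4galnt1 for Cd55 (0.996 to 0.998), Gsg2, Akr1e1 and Rilpl2 for Cfp (0.992 to 0.994) and Gla, Iqce and Appl2 for Cr1l (0.966 to 0.981). These values describe 2 clusters of libraries, ABCs and FO B cells, more than a gradual relation. For Cr2, Treml2 was at 28.7 FPKM on average in FO B cells from aged mice and 2.08 FPKM in ABCs, Brwd1 at 56.7 and 10.7 FPKM and Eid1 at 18.1 and 5.71 FPKM.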

How the data were processed

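Full-length cDNA of sorted splenic B cells was prepared by the SMART-Seq HT Kit, which does not mark strand, and libraries with the Nextera XT kit, sequenced from 1 end. The authors mapped reads to mm10 and deposited FPKM values, 1 per gene and library. The submitters' processing notes name TopHat2 2.1.1, Bowtie2 2.2.8, SAMtools 0.1.18 and Cuffdiff 2.2.1, and the study's methods name Cufflinks and other aligner versions. The gene annotation is not given in the sources used here.

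From the deposited FPKM, log2(FPKM + 1) was fitted by lmFit and eBayes with a trend (limma 3.58.1, R 4.3.3) over the 6 libraries compared, for genes that averaged 1 FPKM or more, with Benjamini-Hochberg adjustment over all genes tested. Genes were called at an FDR under 0.05 and, separately, at a log2 fold change beyond 2.3 in size and FDR below 0.01. This scale understates the change of low genes. The fit was tested on simulated data. Mean FPKM was compared with an exact two-sided permutation test over 20 orders. Whole reads were recovered from FPKM steps for 6276 of 17513 genes, used for low values and not for a count model. The depth is therefore approximate. Samples were grouped by their titles.

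Members and lists were chosen with earlier results of these data known. The genes named are the 9 members, other complement genes called in a comparison or among the 3 others with the highest mean, the co-receptor genes Cd81 and Ifitm1, the 3 genes most like each expressed member and marker genes above 10 FPKM. The markers Csf1r, Cd14, Siglec1, Cxcl13, Ccr2, Spic, Lyz2, Marco, Fcgr1, Flt3, Zbtb46, Siglech, Myof, Plxnd1 and Cd79a were chosen after their values were seen. The same holds for Cd59b, Hc, Fcna, Cd93, Cd46, C5ar2 and Cd55b. Settings tried were 0.1 and 0.01 added to FPKM, all genes or those averaging 5 FPKM or more, quantile, TPM and upper quartile scaling, eBayes without a trend, all 9 libraries, the replicate number as a block and leaving out each library. Protein sequences were not compared here, and 2 genes are not reported here. Python 3.11.15 with numpy 2.4.6, pandas 2.3.3, scipy 1.17.1 and matplotlib 3.10.9 was used.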

Additional observations from a re-analysis of the deposited data

How the results depend on the processing

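Cr2, Cd55 and Cfp kept their direction and an FDR under 0.05 in ABCs against both FO B groups under all 16 alternatives run in each comparison. The counts of members called moved by no more than 1 gene (Cr1l). The count of other complement genes called between ABCs and FO B cells from young mice rose from 5 to 9 with no filter. That fit tests 38 of them in place of 9 and adds, among others, C5ar2, Cd93 and Cd55b. Of all 19376 genes tested in it, 2209 were called as higher and 1719 as lower in ABCs. Without a library, the members called numbered 3 between ABCs and FO B cells from aged mice in each case. Over all genes tested in these fits, 1496 to 1963 were called as higher and 1054 to 1680 as lower in ABCs. Without ABC replicate 3, Cfb was under the mean of 1 FPKM against FO B cells from young mice and was not tested.

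The direction of differences that were not called changed between aged and young FO B cells with upper quartile scaling for C1qbp (-0.082), Cd55 (-0.024), Cd81 (-0.020), Cr1l (-0.011), Cr2 (-0.12) and Itgb2 (-0.065), and for Cr2 with quantile normalization (-0.028) and TPM scaling (-0.00090). When a library was left out, the log2 fold change there ranged from -0.066 to 0.12 for Cr2, -0.31 to 0.064 for Cfp and -0.022 to 0.12 for C1qbp. It ranged from -0.015 to 0.29 for C8g between ABCs and FO B cells from aged mice, and from -0.15 to 0.14 for C1qb and -0.11 to 0.81 for C1qc between ABCs and FO B cells from young mice. The cause was not tested.

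Over all genes, 2020 were higher and 1719 lower in ABCs than in FO B cells from aged mice, against 2447 and 603 with upper quartile scaling, which moved the median by 0.15, and 1751 and 2150 with quantile normalization. Against FO B cells from young mice the counts were 2252 and 1996, and 1836 and 927 with upper quartile scaling, 1928 and 2447 with quantile normalization and 2022 and 2316 with TPM scaling. Between FO B cells of both ages, 47 genes were called, 35 higher and 12 lower in aged mice (24 and 27 with upper quartile scaling), against 15 with no filter, 18 with all 9 libraries and 30 without a trend, and 19 to 69 when a library was left out.

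Same-numbered libraries of different groups had correlated deviations of -0.09 to 0.14. Between ABCs and FO B cells from aged mice these correlations were 0.085, -0.019 and 0.108, against -0.108 to 0.059 for libraries of different number. Whether same-numbered libraries came from the same mice cannot be told from 3 libraries a group. With the replicate block, Cr1l lost its call in ABCs against FO B cells from aged mice (FDR = 0.0635, limma), which left 3 members called, and 4 members against FO B cells from young mice and 5 other complement genes in each of both comparisons were called. Of all 10412 genes tested with the block against FO B cells from aged mice, 1891 were called as higher and 1557 as lower in ABCs. Against FO B cells from young mice, 1947 and 1561 of 10438 genes were called. Members under 1 FPKM rest on at most 70 reads a group, which limits what could be seen.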

Other observations

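Hc, which encodes C5, had 5, 4 and 3 reads in the ABC libraries and 0 in all 6 FO B libraries (FDR = 0.062 against FO B cells from aged mice, limma with no filter).

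Cd93, whose product was once described as a C1q receptor and marks immature B cells, was at 0.573, 1.18 and 0.716 FPKM in FO B cells from aged mice and at 0.473, 0.154 and 0.0188 FPKM in ABCs (FDR = 0.0715, limma with no filter). Against FO B cells from young mice, it was called with no filter, at a log2 fold change of -0.93 (FDR = 0.00946, limma). Fcna, which encodes a ficolin of the lectin pathway, had 59 reads in FO B cells from young mice, 7 in FO B cells from aged mice and 22 in ABCs. Its log2 fold change between FO B cells from aged and young mice was -1.23 (SE 0.29, FDR = 0.131, limma). The 2 groups did not overlap, as for 18.6% of all genes tested, and Fcna passed the filter through FO B cells from young mice.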
